A study of Mus musculus with 5 samples.

Results

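Histone H3 lysine 14 acetylation (H3K14ac) was followed at 9 cytokine and growth factor receptor genes of blood stem and progenitor cells, after loss of the acetyltransferase HBO1 (also called KAT7). The genes were chosen by name and matched by Entrez identifier: Tek, Kit, Flt3, Csf1r, Csf3r, Csf2rb, Il6st, Il3ra and Ifnar1, 9 of the 27179 genes counted. The cells were bone marrow LSK cells of male C57BL/6 mice, purified by FACS; the name stands for cells without lineage markers that carry Sca-1 and KIT. The knockout group (KO) held 2 libraries of genotype Hbo1def/def; T/+, and the control group held 2 libraries of genotype Hbo1def/+; T/+. All of these mice had received poly(I:C), which switches on Mx1-cre through interferon signalling, so the controls carried the recombinase, the treatment and a heterozygous def allele as well. The labels do not explain the T allele, and they give neither the age of the mice nor whether the libraries came from separate animals. The p-values therefore measure only the spread between these libraries, which may be technical. Mx1-cre acts in any cell that responds to interferon, not in blood cells alone. A library of control cells made with an antibody against HBO1 was not analysed here.

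The receptors fall into families that signal in different ways. TEK, KIT, FLT3 and CSF1R are receptor tyrosine kinases, which phosphorylate themselves when a ligand joins them into dimers. CSF3R, the IL-3 receptor alpha chain encoded by Il3ra, the common beta chain encoded by Csf2rb, the signal transducer gp130 encoded by Il6st, and IFNAR1 have no kinase of their own and signal through bound Janus kinases (JAKs) to STAT transcription factors. In bone marrow, KIT marks stem and progenitor cells and is 1 of the markers by which LSK cells are sorted, FLT3 marks multipotent and lymphoid-primed progenitors, and TEK is carried by endothelial cells and by long-lived stem cells. HBO1 is a MYST-family acetyltransferase known to acetylate H3K14, a mark found at active promoters and across gene bodies.

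CUT&Tag uses an antibody to bring Tn5 transposase to the modified histone, where it cuts the DNA and adds sequencing adapters. The deposited values were read counts per gene in 3 region classes: a window of 5 kb before each gene start, the body itself, and a window of 5 kb past each gene end. Over the 3 classes together, the KO libraries held 6466740 and 7633706 counts, and the control libraries held 14811651 and 12793434. The upstream windows took 16.5% and 11.4% of all counts in the KO libraries, against 7.86% and 8.43% in the control libraries. KO replicate 1 therefore stood apart from KO replicate 2. Levels are given as CPM (counts relative to the library total of a region class), scaled by TMM, which removes a shift shared by most genes of that class. Gains and losses below are therefore relative to the other genes of a class, and a change shared by all genes would not be seen. H3K14ac counts at Kat7, the gene that encodes HBO1, cannot check the deletion, because a histone mark is present on DNA whether or not the protein is made. Its upstream level was 19.1 and 24.0 CPM in KO libraries and 44.5 and 40.1 CPM in control libraries (log2 fold -0.97, edgeR adjusted p = 0.0877, not called). Over the Kat7 body the KO libraries were higher (log2 fold 1.06, edgeR adjusted p = 0.00668). Across 11 LSK cell markers, the median gene body level per kb lay at percentile 83.3 of genes in KO libraries and 75.9 in control libraries. For 20 markers of other bone marrow cells, 18 of them tested, the corresponding percentiles were 66.4 in KO libraries and 68.7 in control libraries. Downstream the directions were the opposite. There the LSK markers lay at 69.1 in KO libraries and 79.7 in control libraries, and the other markers at 70.4 and 66.3. In these bulk libraries, fewer cells with a marked gene and less mark per cell cannot be told apart.

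In these relative levels, Il3ra and Flt3 gained H3K14ac both upstream and over the gene body in the KO libraries. Ifnar1 gained it upstream, and Csf3r and Csf2rb gained it downstream. Tek was the single receptor gene that lost the mark by the test, over its body, and Kit, Csf1r and Il6st passed in no region class. Upstream, 3 of the 9 genes were called higher and 0 lower by edgeR's quasi-likelihood test, where 24% of the 23200 genes tested were called higher, 14.3% lower and 38.2% called in either direction. Over gene bodies, 2 were higher and 1 was lower, beside 23.1% higher, 15.2% lower and 38.3% in either direction of 21393 genes. Downstream, 2 were higher and 0 lower, beside 10.8% higher, 2.3% lower and 13.1% in either direction of 21566 genes. The shares of the 9 genes called are thus near those of all genes upstream and over bodies. At an unadjusted p under 0.05 the receptor genes numbered 4 upstream, 3 over bodies and 3 downstream. The median log2 fold of the 9 genes was 0.47 upstream, 0.47 over bodies and 0.77 downstream, while the medians of all genes tested were -0.09, 0.02 and -0.04 in the same order.

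**Figure D1:**
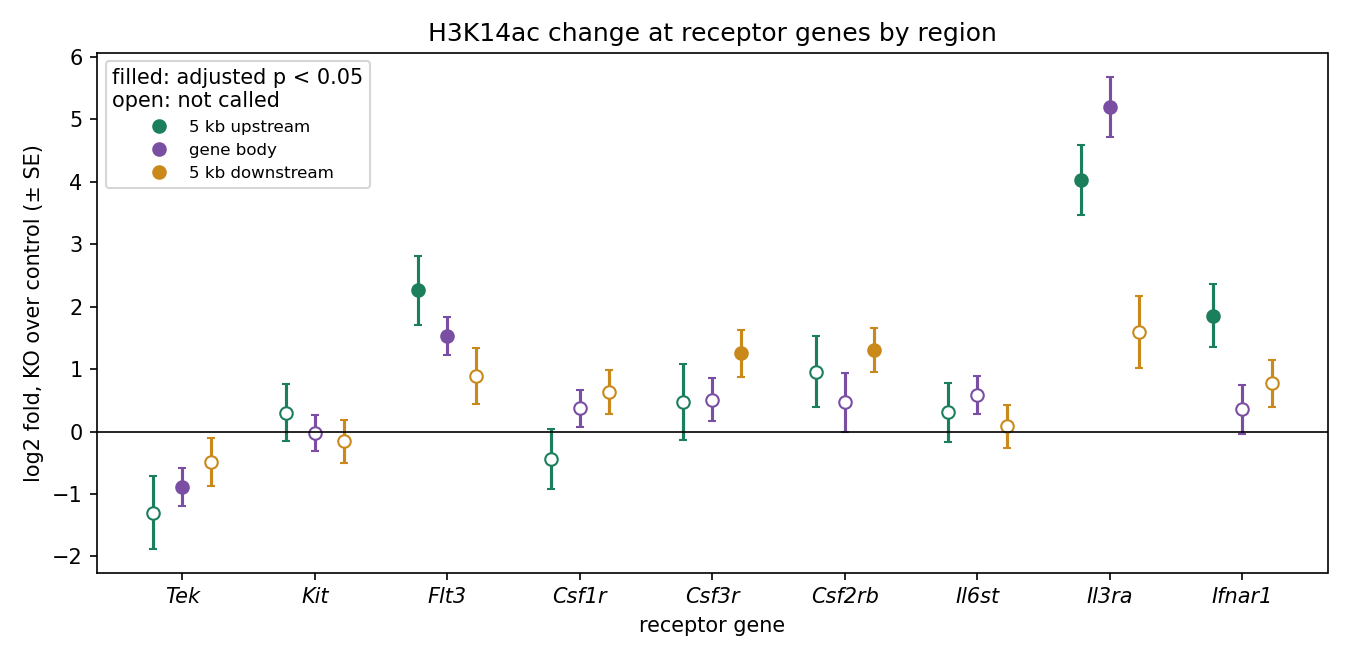
Log2 fold of H3K14ac, KO over control, at the 9 receptor genes in the 5 kb upstream (green), gene body (purple) and 5 kb downstream (orange); bars are 1 SE, and filled points passed an adjusted p of 0.05 in edgeR. Il3ra reaches 5.20 over its body, Tek lies below 0 in all 3 classes, and Kit stays close to 0.

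The 250 bases before the start are shown for the 3 genes that rose upstream and for Tek, because these 4 differ in the density of CpG dinucleotides, the sequence feature by which promoters are usually classed. The sequences are those of RefSeq on GRCm38.p6, read 5′ to 3′ on the gene's strand, and capitals mark CpG. The windows are chr14:14346245-14346494 on the plus strand for Il3ra, chr5:147400490-147400739 on the minus strand for Flt3, chr16:91484965-91485214 on the plus strand for Ifnar1 and chr4:94739039-94739288 on the plus strand for Tek. They end at the start that the sequence table uses, so the Il3ra window lies inside the longest annotated span of its gene, and those of Ifnar1 and Tek reach into it.
Il3ra: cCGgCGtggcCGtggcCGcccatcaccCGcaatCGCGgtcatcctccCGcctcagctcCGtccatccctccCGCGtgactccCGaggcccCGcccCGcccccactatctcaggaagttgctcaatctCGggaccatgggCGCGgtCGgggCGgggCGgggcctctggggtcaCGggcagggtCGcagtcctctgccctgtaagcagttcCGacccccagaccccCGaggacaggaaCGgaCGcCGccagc
Flt3: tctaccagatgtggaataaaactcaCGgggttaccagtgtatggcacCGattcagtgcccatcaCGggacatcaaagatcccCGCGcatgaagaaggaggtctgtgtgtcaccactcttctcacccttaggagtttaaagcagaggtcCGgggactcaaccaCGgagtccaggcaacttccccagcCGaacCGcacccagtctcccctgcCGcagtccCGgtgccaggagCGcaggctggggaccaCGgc
Ifnar1: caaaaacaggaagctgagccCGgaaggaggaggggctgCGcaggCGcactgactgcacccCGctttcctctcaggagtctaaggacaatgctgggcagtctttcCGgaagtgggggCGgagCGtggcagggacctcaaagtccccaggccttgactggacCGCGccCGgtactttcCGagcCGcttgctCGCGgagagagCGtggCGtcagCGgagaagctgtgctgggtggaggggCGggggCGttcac
Tek: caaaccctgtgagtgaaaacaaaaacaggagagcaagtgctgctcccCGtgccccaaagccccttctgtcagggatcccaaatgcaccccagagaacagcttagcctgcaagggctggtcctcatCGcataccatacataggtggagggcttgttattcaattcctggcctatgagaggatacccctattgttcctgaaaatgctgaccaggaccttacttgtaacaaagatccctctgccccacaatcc

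The Il3ra window holds 27 CpG dinucleotides, the Ifnar1 window 19, the Flt3 window 13 and the Tek window 2. As a ratio of observed to expected CpG, these are 0.843, 0.728, 0.597 and 0.126, beside a median of 0.53 over 18457 genes. Among the other receptor genes the ratio was 0.959 for Il6st with 26 CpG, 0.601 for Kit with 17 and 0.267 for Csf3r with 6. Csf1r and Csf2rb had no entry in the sequence table. Motif letters were searched on both strands of the same windows, and a match is only a run of letters. The SP-family letters GGGCGG occurred 5 times before Il3ra, 2 times before Ifnar1 and 1 time each before Kit and Il6st, and 32.9% of 27025 promoter windows held them. The ETS-family letters AGGAAG occurred 4 times before Csf3r and 1 time each before Kit, Il3ra and Ifnar1, and 29.2% of windows held them. The GATA letters AGATAA, the RUNX letters TGTGGT, the E-box CAGCTG and the STAT-type letters TTCNNNGAA were not found in the windows of these 7 genes; they were present in 10.3%, 14.2%, 12.8% and 7.18% of all windows in that order.

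Among the receptor tyrosine kinases, Flt3 was the gene that gained H3K14ac. Flt3, the receptor for FLT3 ligand, lies on the minus strand at chr5:147330741-147400489 (GRCm38, as for all gene positions here). Over its 5 kb upstream window the level was 161 and 88.5 CPM in the KO libraries, against 26.5 and 25.3 CPM in the control libraries. Both KO libraries were above both controls, and KO replicate 1 was the higher of the KO pair. The log2 fold was 2.26 ± 0.55 (SE), with an edgeR adjusted p of 4.6e-04. Over the gene body, Flt3 had 251 and 148 CPM in KO libraries and 69.1 and 69.1 CPM in control libraries. The groups did not overlap, and the log2 fold was 1.53 ± 0.30, with an edgeR adjusted p of 5.2e-05. Downstream, 21.8 and 40.0 CPM in KO libraries stood against 16.1 and 17.9 CPM in control libraries, again without overlap, but the log2 fold of 0.89 ± 0.45 had an edgeR adjusted p of 0.212. The upstream call was lost without KO replicate 1 (log2 fold 1.81), without control replicate 1 (2.29) and without control replicate 2 (2.22), and the body call was lost only without control replicate 1 (1.52). An annotated long non-coding RNA gene on the plus strand, Gm26597, starts inside the Flt3 body and runs into its upstream window, so reads of the 2 genes cannot be told apart there.

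Tek, which encodes TIE2, the receptor for angiopoietins, moved the other way. It spans chr4:94739086-94874976 on the plus strand. Its body level was 102 and 164 CPM in KO libraries and 287 and 205 CPM in control libraries. Both KO libraries were below both controls. The log2 fold was -0.88 ± 0.31, with an edgeR adjusted p of 0.0182. Upstream, Tek had 30.3 and 79.8 CPM in KO libraries and 167 and 105 CPM in control libraries, also without overlap. The upstream log2 fold of -1.30 ± 0.58 missed the threshold with an edgeR adjusted p of 0.0623. Downstream, 29.1 and 59.3 CPM in KO libraries overlapped the 74.2 and 52.2 CPM of the control libraries (log2 fold -0.48 ± 0.38, edgeR adjusted p = 0.43), in a window that shares 4280 bp with the neighbouring gene Eqtn. The body call of Tek did not hold with library totals (log2 fold -0.52), with totals pooled over the region classes (-0.64) or when libraries were scaled on olfactory and vomeronasal receptor genes (-0.25). It was also lost without KO replicate 1 (-0.55), without control replicate 1 (-0.63) and without control replicate 2 (-1.12). Tie1, the related kinase that partners TEK, had an upstream level of 3.37 and 15.3 CPM in KO libraries and 40.2 and 28.6 CPM in control libraries. Its log2 fold was -1.86 ± 0.54, with an edgeR adjusted p of 0.00354, a call lost without any of the 4 libraries (from -3.16 without KO replicate 2 to -1.12 without KO replicate 1). With pooled totals (-1.31) and olfactory and vomeronasal receptor scaling (-1.02) the Tie1 call was lost as well. Endothelial cells carry both genes, and the 3 endothelial markers had body values on both sides of 0. Cdh5, an endothelial cadherin, had 51.5 and 69.4 CPM in KO libraries and 130 and 89.6 CPM in control libraries (log2 fold -0.86 ± 0.29, edgeR adjusted p = 0.0168), a call lost under 7 alternatives. Kdr was at -0.64 (edgeR adjusted p = 0.0707), and Pecam1 was at 0.54 (edgeR adjusted p = 0.122), with both KO libraries above both controls. The part of endothelial cells in the Tek result was not tested.

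Kit, the receptor for stem cell factor, was close to even between the groups in relative level. It spans chr5:75574987-75656722 on the plus strand. Its body held 133 and 125 CPM in KO libraries and 132 and 130.1 CPM in control libraries, so the groups overlapped. The log2 fold was -0.02 ± 0.29, with an edgeR adjusted p of 0.962. Upstream, 31.5 and 39.3 CPM in KO libraries overlapped 20.5 and 36.8 CPM in control libraries, with a log2 fold of 0.30 ± 0.46. Downstream, 60.1 and 63.2 CPM in KO libraries overlapped 61.9 and 75.6 CPM in control libraries, with a log2 fold of -0.16 ± 0.35. The sign of the Kit fold changed under at least 1 alternative in each class.

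Csf1r, the receptor for macrophage colony-stimulating factor, lies on the plus strand at chr18:61105572-61131139 and passed in no region class. Its upstream level was 46.1 and 44.8 CPM in KO libraries, below the 47.9 and 75.2 CPM of the control libraries (log2 fold -0.44 ± 0.48, edgeR adjusted p = 0.461), and its direction turned with olfactory and vomeronasal receptor scaling (0.49). Its body level was 78.3 and 58.1 CPM in KO libraries and 61.3 and 44.1 CPM in control libraries, which overlapped (log2 fold 0.37 ± 0.30). Its downstream level was 56.4 and 45.1 CPM in KO libraries, above the 36.7 and 28.1 CPM of the control libraries (log2 fold 0.64 ± 0.35, edgeR adjusted p = 0.254). That downstream window shares 4863 bp with the gene Hmgxb3.

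**Figure D2:**
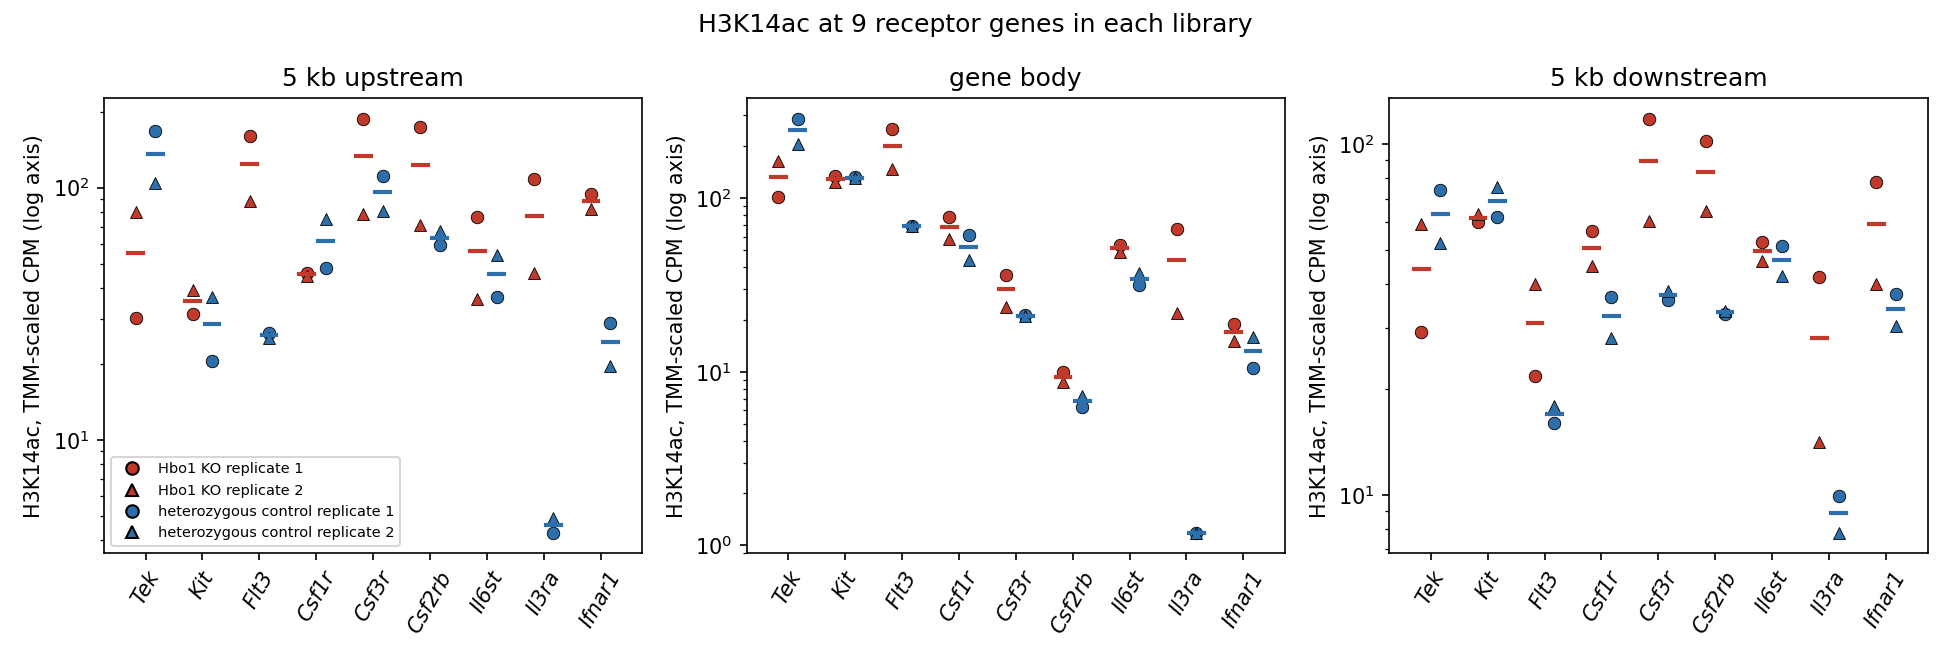
H3K14ac of the 9 receptor genes in each library as TMM-scaled CPM on a log axis, for the 5 kb upstream, the gene body and the 5 kb downstream; red is KO, blue is control, circles are replicate 1, triangles replicate 2, and short lines the means of 2 libraries. The control points of Il3ra sit at 4.28 and 4.90 CPM upstream and at 1.18 and 1.19 CPM over the body, far below its KO points.

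Among the receptor chains that signal through JAKs, Il3ra had the largest difference. Il3ra encodes the chain that binds IL-3 and lies on the plus strand at chr14:14345912-14355493. Upstream, it had 108 and 45.9 CPM in KO libraries, from 96 and 42 counts, against 4.28 and 4.90 CPM in control libraries, from 5 and 6 counts. Over the body, it had 66.7 and 21.9 CPM in KO libraries, from 361 and 147 counts, against 1.18 and 1.19 CPM in control libraries, from 12 and 12 counts. In both classes the lower KO library was far above the higher control. The upstream log2 fold was 4.03 ± 0.56 (edgeR adjusted p = 5.5e-10). The body log2 fold was 5.20 ± 0.48 (edgeR adjusted p = 1.2e-13). In level per kb, its body lay at percentile 97.3 of the genes tested in KO libraries and at percentile 1.92 in control libraries. In both classes Il3ra passed the filter on low counts through the KO libraries, and without any filter its upstream log2 fold was 4.04. The body call held under all 14 alternatives, with log2 folds between 4.22 and 5.94. The upstream call was lost without KO replicate 1 (3.33) and without control replicate 1 (3.94). Downstream, 41.9 and 14.2 CPM in KO libraries lay above 9.94 and 7.80 CPM in control libraries, with a log2 fold of 1.59 ± 0.58 and an edgeR adjusted p of 0.0814.

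Csf2rb encodes the beta chain that IL-3, IL-5 and GM-CSF receptors share, and it lies on the plus strand at chr15:78325800-78351001. It differed downstream, where KO libraries had 102 and 64.4 CPM and control libraries 32.9 and 33.5 CPM. The groups did not overlap, and the log2 fold was 1.31 ± 0.35, with an edgeR adjusted p of 0.0202. Upstream, KO libraries had 174 and 71.0 CPM and control libraries 59.1 and 67.0 CPM, and KO replicate 2 lay just above the controls (log2 fold 0.96 ± 0.57, edgeR adjusted p = 0.16). Over the body the levels were 9.97 and 8.78 CPM in KO libraries and 6.31 and 7.21 CPM in control libraries (log2 fold 0.47 ± 0.47, edgeR adjusted p = 0.431). The downstream call was lost in 6 of 13 alternatives, among them library totals (1.07), DESeq2 (1.37), the absence of KO replicate 1 (0.95), of control replicate 1 (1.29) and of control replicate 2 (1.32). Csf2rb has a near-identical copy in mice, Csf2rb2, which encodes a beta chain used by IL-3 alone. Reads of the 2 copies may have been split, so the Csf2rb values are uncertain. Csf2rb2 passed in no region class, with log2 folds of -0.15 upstream, -0.23 over the body and -0.21 downstream.

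The other chains of this family were set beside them after their values were seen. Csf2ra, the alpha chain for GM-CSF, had a body level of 72.4 and 14.3 CPM in KO libraries and 0.690 and 0.889 CPM in control libraries. Its log2 fold of 5.74 ± 0.54 passed under every alternative, between 4.19 and 6.54. These control levels lie below those of the Il3ra body, 1.18 and 1.19 CPM from 12 and 12 counts. Csf2ra thus also passed the filter on low counts through the KO libraries, and the size of its fold rests on few control counts. Il5ra, the alpha chain for IL-5, had 30.1 and 42.3 CPM in KO libraries and 81.9 and 55.7 CPM in control libraries over its body. Both KO libraries were below both controls (log2 fold -0.92 ± 0.30, edgeR adjusted p = 0.0136), but the call was lost under 7 alternatives. Of the 3 alpha chains that use the common beta chain, those for IL-3 and GM-CSF were higher over the body in KO libraries. That for IL-5 was lower. Il3ra and Csf2ra, admitted by the filter through the KO libraries, could hardly have been called lower. The chains were also set together after their values were seen, so these directions are not read as a result about the family.

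Csf3r, the receptor for granulocyte colony-stimulating factor, lies on the plus strand at chr4:126023441-126044975. Downstream it had 118 and 60.6 CPM in KO libraries and 35.9 and 38.2 CPM in control libraries. The groups did not overlap, and the log2 fold was 1.25 ± 0.38 with an edgeR adjusted p of 0.0378. That window shares 3048 bp with Mrps15, a mitochondrial ribosomal protein gene whose start lies inside it. Mrps15 was itself higher over its body in the KO libraries, with a log2 fold of 1.28 and an edgeR adjusted p of 0.0322, so the gain cannot be placed on Csf3r rather than on its neighbour. Upstream, Csf3r had 188 and 78.7 CPM in KO libraries and 111 and 80.9 CPM in control libraries, which overlapped (log2 fold 0.47 ± 0.61). Over the body it had 36.2 and 23.5 CPM in KO libraries and 21.1 and 20.9 CPM in control libraries (log2 fold 0.51 ± 0.35, edgeR adjusted p = 0.235). The downstream call was lost in 8 of 14 alternatives, among them the absence of KO replicate 1 (0.71), of control replicate 1 (1.21) and of control replicate 2 (1.30). An antisense long non-coding RNA gene, Gm32908, covers the whole upstream window.

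Il6st, which encodes the gp130 chain shared by receptors of the IL-6 family, lies on the plus strand at chr13:112464070-112506860 and passed in no region class. Over the body, KO libraries had 53.9 and 49.1 CPM and control libraries 31.8 and 37.2 CPM. Both KO libraries were higher, but the log2 fold of 0.58 ± 0.30 had an edgeR adjusted p of 0.12. Upstream, 76.4 and 36.1 CPM in KO libraries enclosed the 36.8 and 53.9 CPM of the control libraries (log2 fold 0.31 ± 0.47). Downstream, 52.8 and 46.4 CPM in KO libraries overlapped 51.2 and 42.1 CPM in control libraries (log2 fold 0.08 ± 0.34). For comparison, Il6ra, the IL-6 binding chain, named here after its values were seen, had body levels of 118 and 72.8 CPM in KO libraries and 50.4 and 45.8 CPM in control libraries, with a log2 fold of 0.99 ± 0.29 and an edgeR adjusted p of 0.00651. That call was lost without KO replicate 1 (0.63), without either control library and with the replicate block.

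Ifnar1 encodes a chain of the type I interferon receptor and lies on the plus strand at chr16:91485032-91510523. Upstream it had 94.4 and 82.0 CPM in KO libraries and 29.1 and 19.6 CPM in control libraries. Here the KO libraries were close to each other and well above both controls. The log2 fold was 1.85 ± 0.50, with an edgeR adjusted p of 0.0017. Over the body the groups overlapped, at 18.8 and 15.04 CPM in KO libraries and 10.6 and 15.9 CPM in control libraries (log2 fold 0.35 ± 0.40, edgeR adjusted p = 0.486). Downstream, KO libraries had 78.3 and 40.0 CPM and control libraries 37.5 and 30.4 CPM (log2 fold 0.77 ± 0.38, edgeR adjusted p = 0.195). The upstream call was lost when any of the 4 libraries was left out, while the log2 fold stayed between 1.59 and 2.16. Ifnar2, which encodes the partner chain, had an upstream level of 170 and 69.9 CPM in KO libraries and 21.4 and 40.1 CPM in control libraries. Its log2 fold was 1.96 ± 0.54 (edgeR adjusted p = 0.00225), a call lost without any of the 4 libraries, with values between 1.22 and 2.60, and with the replicate block (1.88). Ifngr1, the ligand-binding chain for interferon gamma, had 194 and 78.7 CPM in KO libraries and 27.4 and 28.6 CPM in control libraries upstream. Its log2 fold was 2.28 ± 0.57 (edgeR adjusted p = 6.0e-04), lost without KO replicate 1 (1.53), control replicate 1 (2.25) or control replicate 2 (2.31). KO and control mice had both been given poly(I:C), and no untreated group was included, so the part of the treatment was not tested.

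The groups did not overlap for 6 of the 9 genes upstream, 4 with the KO libraries above and 2 below, where 77.8% of all genes tested did not overlap, 37.8% above and 39.9% below. Over gene bodies, 6 did not overlap, 5 above and 1 below, beside 80% of all genes, 40.6% above and 39.4% below. Downstream, 6 did not overlap, all above, beside 62.6% of all genes, 29.9% above and 32.7% below. Set against these shares, the counts at the receptor genes are no result about them. All 27 gene regions passed the filter on low counts.

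The dependence of the calls on single libraries was general upstream. Without KO replicate 1, 0 of 23993 genes were called upstream by edgeR, although 5770 had an unadjusted p under 0.05. Without control replicate 1, 73 were called. A fit that leaves an arm with 1 library assumes that this library varies like the other group. The median upstream log2 fold of all genes was -0.09 with TMM, -0.27 with library totals, 0.46 with totals pooled over classes and 0.83 with olfactory and vomeronasal receptor scaling. The upstream folds of Il3ra, Flt3 and Ifnar1 were above 0 and called under each of these scalings, and lay above that median in each.

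**Figure D3:**
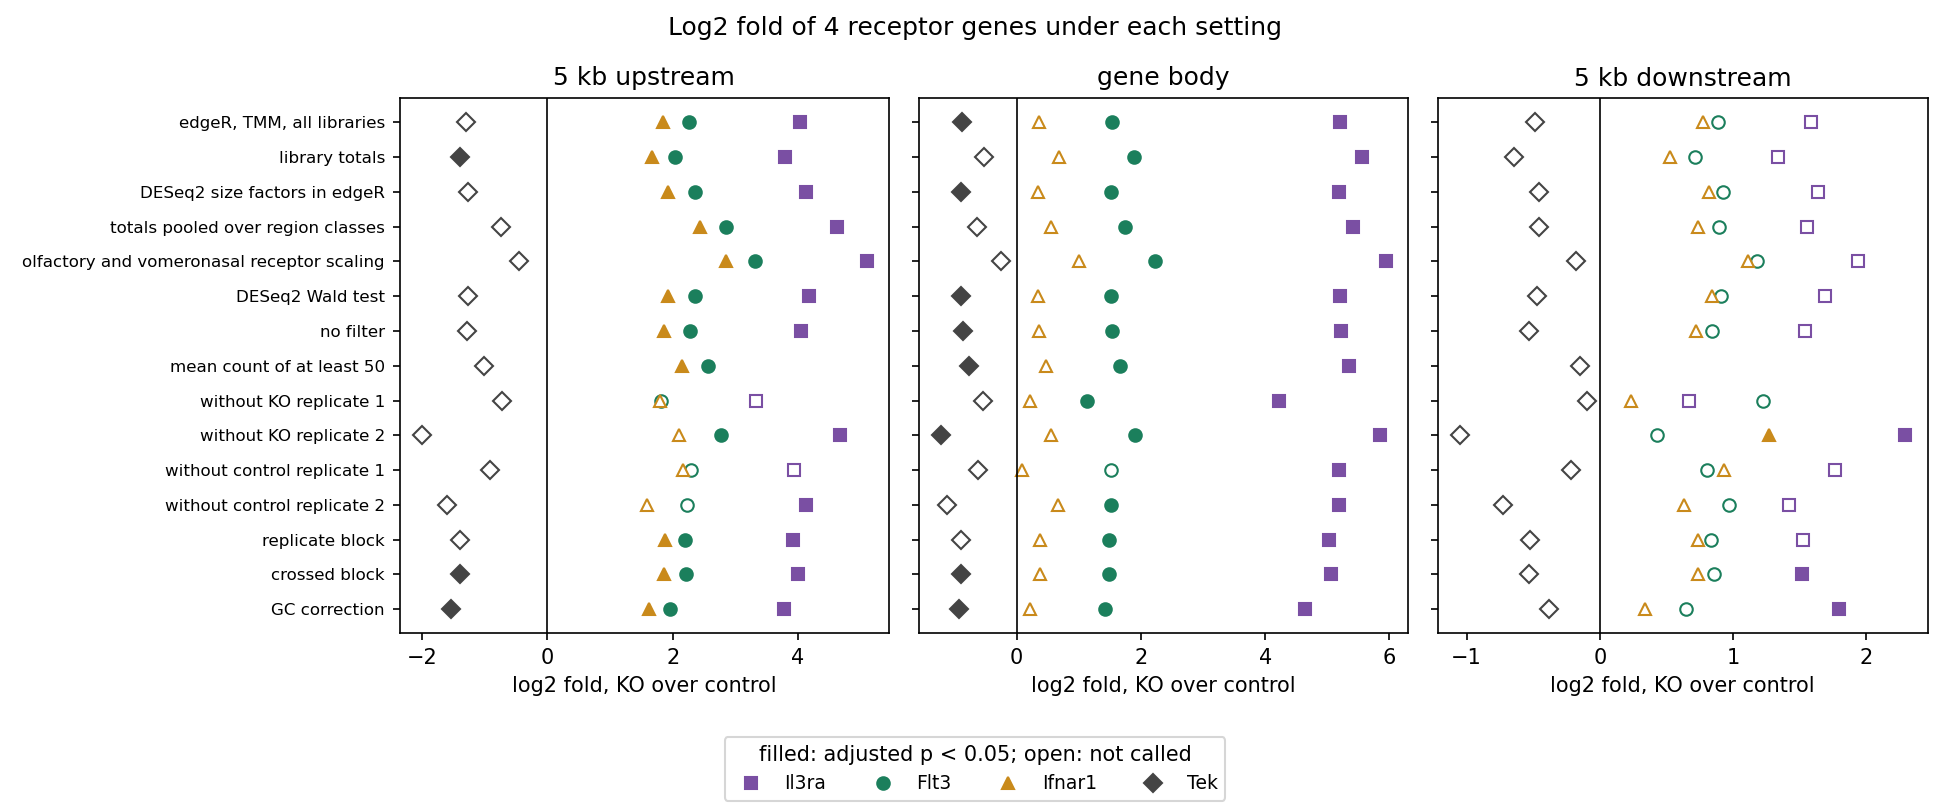
Log2 fold, KO over control, of Il3ra (squares), Flt3 (circles), Ifnar1 (triangles) and Tek (diamonds) under each scaling, test, filter, left-out library and block, for the 3 region classes; filled points passed an adjusted p of 0.05. The body fold of Il3ra is filled on every line, between 4.22 and 5.94, while upstream most points on the 4 lines that leave out a library are open.

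The place of the mark within each gene was compared next. Ifnar1 was the only receptor gene that passed the limma test of upstream change against body change, given below. The upstream log2 fold was also larger in size than the body fold at genes that did not pass. Among them were Flt3 (2.26 against 1.53), Csf2rb (0.96 against 0.47) and Tek (-1.30 against -0.88). The upstream share of counts at Ifnar1 was 36.7% and 36.2% in KO libraries, against 17.9% and 10.7% in control libraries. The 95% Wilson intervals of each KO library lay above those of both controls. The share of all genes together shifted the same way, at 16.5% and 11.4% in KO libraries and 7.86% and 8.43% in control libraries. The intervals cover counting error only, since reads without molecular identifiers are not independent molecules. Tested with limma on log2 CPM, the upstream level of Ifnar1 relative to its body differed by 1.43 ± 0.40 (log2, SE), with an adjusted p of 0.0291. By this test 8.95% of 19996 genes were higher, 4.08% lower and 13% either. The call was lost without control replicate 2 (0.88) and without KO replicate 1 (1.50).

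Il3ra pointed the other way in that comparison, since its body changed by more than its upstream window, with a difference of -1.27 ± 0.42 and a limma adjusted p of 0.0618. It passed with the replicate block, at a limma adjusted p of 0.0442. Of its counts, 75.2% and 73.5% lay in the body in KO libraries, against 40.0% and 42.9% in control libraries, where the shares rest on 30 and 28 counts in all. For Flt3, 9.46% and 7.33% of counts were upstream in KO libraries and 4.12% and 4.12% in control libraries. All genes together shifted in the same direction, and relative to that shift the change at Flt3 was 0.65 ± 0.32 with a limma adjusted p of 0.209. Csf2rb had the highest upstream shares of the 9 genes, at 58.5% and 37.4% in KO libraries and 39.2% and 41.4% in control libraries. Kit had the lowest in the control libraries, at 3.58% and 3.90% in KO libraries and 1.67% and 3.09% in control libraries.

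**Figure D4:**
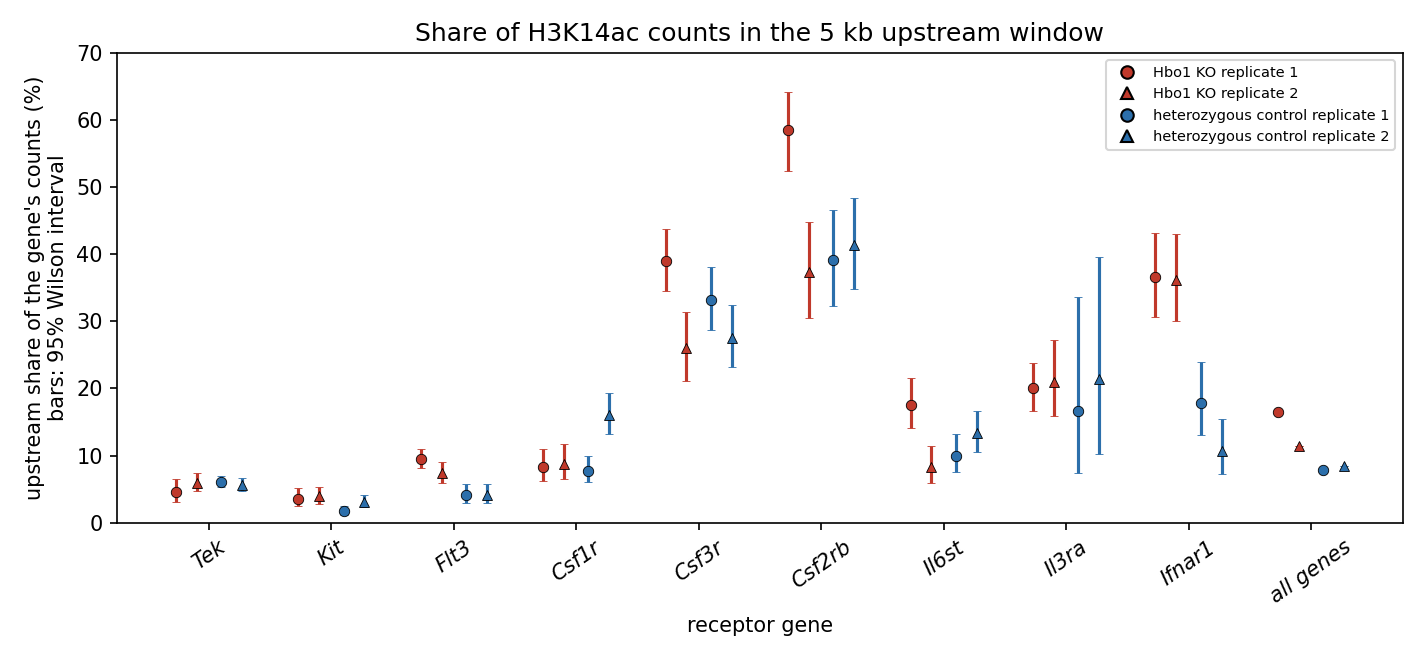
Share of each receptor gene's counts, over its 3 region classes, that fell in the 5 kb upstream, in percent, for each library (red KO, blue control), with 95% Wilson intervals; all genes together are at the right. Ifnar1 stands at 36.7% and 36.2% in KO libraries and at 17.9% and 10.7% in control libraries, whereas the Tek shares lie between 4.55% and 6.09% in all 4.

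The order of the receptor genes by level per kb differed between the groups. Over gene bodies in KO libraries, Il3ra came first with 4.92 CPM per kb, then Flt3 with 2.86 and Csf1r with 2.67, and the ranges of these 3 overlapped. In control libraries, Csf1r with 2.06 CPM per kb, Tek with 1.81 and Kit with 1.60 came first, each overlapping the next, and Il3ra came last with 0.132, below the range of Csf2rb with 0.270. Upstream in KO libraries the means ran from 26.6 CPM per kb at Csf3r to 7.08 at Kit, and each neighbour in that order overlapped the next except Csf1r and Kit. Upstream in control libraries, Tek came first with 27.2 CPM per kb, its range overlapping that of Csf3r with 19.2. Flt3 with 5.19 and Ifnar1 with 4.87 came just before the last and overlapped, and Il3ra came last with 0.919, apart from all others. Tek was thus first of the 9 upstream in the control libraries and Il3ra last.

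The CpG ratio of the promoter windows was set beside the upstream change for 18457 genes in the RefSeq table, of which those tested were grouped by ratio. In the group below 0.2, which holds Tek, 4.6% of genes were called higher and 28.3% lower in KO libraries. In the group of at least 0.8, which holds Il3ra and Il6st, 49.9% were higher and 2.81% lower. The group from 0.6 to 0.8 with Kit and Ifnar1 had 37.2% higher and 4.6% lower, the group from 0.4 to 0.6 with Flt3 had 21.6% and 13.3%, and the group from 0.2 to 0.4 with Csf3r had 10.4% and 22.2%. Kit lay between the quartiles of its group, Tek and Il6st lay at the lower quartile of theirs, and Csf3r, Flt3, Ifnar1 and Il3ra lay above the upper one. These values are a description, since genes are not independent replicates. After a correction for GC content, chosen after seeing the data, the upstream log2 fold was 3.77 at Il3ra, 1.96 at Flt3, 1.62 at Ifnar1 and -1.54 at Tek, all past the threshold in edgeR.

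**Figure D5:**
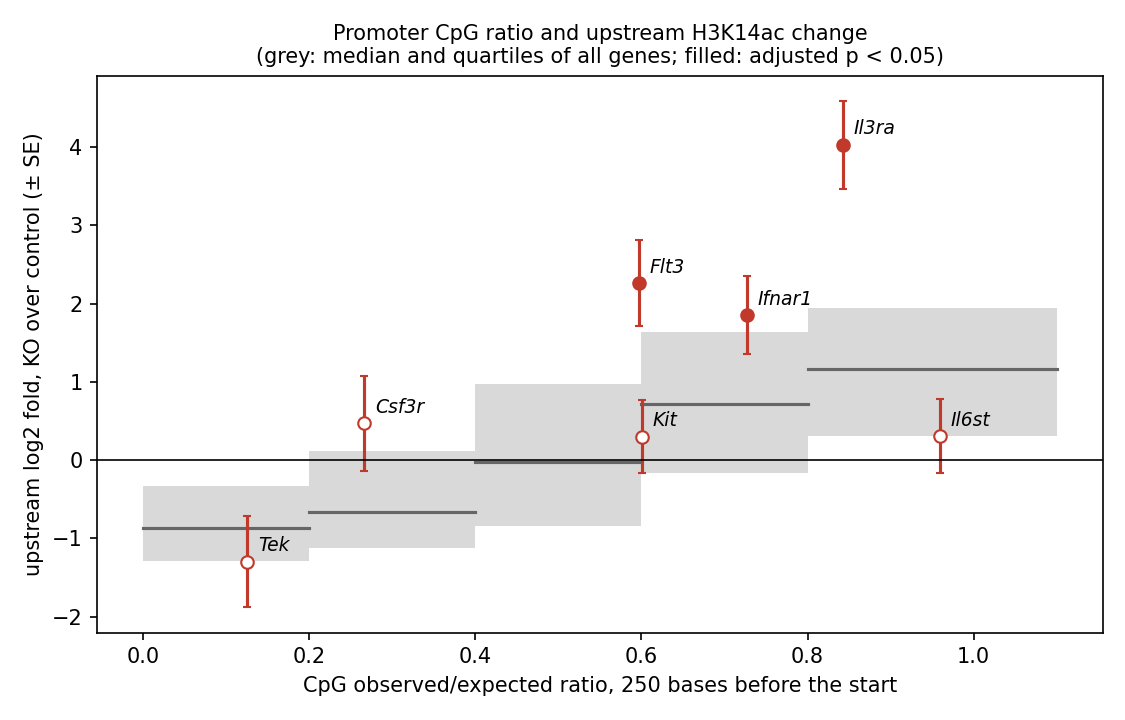
Upstream log2 fold, KO over control (± SE), of the 7 receptor genes with a promoter in the RefSeq table, against the CpG observed to expected ratio of the 250 bases before the start; grey bands are quartiles and grey lines medians of all genes tested in each range of the ratio, and filled points passed an adjusted p of 0.05. The median of all genes runs from -0.86 in the lowest range to 1.17 in the highest, and Il3ra at 4.03 and Flt3 at 2.26 lie above the bands.

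A list of genes that act downstream of these receptors was set beside them. Of 24 JAK-STAT and adaptor genes, 17 were higher upstream and 0 lower in KO libraries by edgeR, with a median log2 fold of 1.54, beside 24% of all genes higher and a median of -0.09. Over bodies, 10 of 23 tested were higher and 0 lower, and downstream 4 of 20 were higher and 0 lower. Of all genes, 23.1% were higher over bodies and 10.8% downstream. Some of these genes passed the filter on low counts through the KO libraries. Upstream, Jak3 had 0 and 3.27 CPM and Shc1 had 4.28 and 7.36 CPM in control libraries. Over bodies, Socs1 had 0.197 and 0.494 CPM there, and downstream Shc1 had 4.59 and 12.5 CPM. A gene admitted in this way could hardly be called lower, so part of these counts follows from the filter. The list was chosen with earlier results of these data known. Across all genes the share called higher upstream also rose with the promoter CpG ratio. The ratios of the genes in this list were not compared, and their part in these counts was not tested. Sh2b3, which encodes the adaptor LNK that restrains cytokine signalling, had an upstream level of 185 and 84.1 CPM in KO libraries and 4.28 and 12.3 CPM in control libraries (log2 fold 3.998 ± 0.61). Cbl, a ubiquitin ligase that targets activated receptor kinases, had 92.1 and 52.5 CPM in KO libraries and 3.42 and 12.3 CPM in control libraries (3.17 ± 0.52). Sh2b3 and Cbl both passed the filter on low counts through the KO libraries, and the size of their folds rests on few control counts. Over bodies, Pim1, a serine kinase induced by STAT factors, had 75.3 and 22.6 CPM in KO libraries and 1.97 and 1.68 CPM in control libraries, and its log2 fold of 4.73 ± 0.45 passed under every alternative. Ptpn6, the phosphatase SHP-1, had a body log2 fold of 1.91 ± 0.34 (0.93 without KO replicate 1, still called), and Socs3, a feedback inhibitor of gp130 signalling, had a downstream log2 fold of 3.77 ± 0.71. In each of these the KO libraries lay above both controls. Genes that share the downstream window of Socs3 were not looked up. The Sh2b3 call was lost without KO replicate 1 (3.36), KO replicate 2 (4.60) or control replicate 1 (3.45), the Cbl call without KO replicate 1 (2.75), KO replicate 2 (3.66) or control replicate 1 (2.55), and the Socs3 call without control replicate 1 (3.52) or control replicate 2 (4.08). Upstream, the number of genes of this list called was 0 without KO replicate 1, 0 without control replicate 1, 6 without KO replicate 2, 4 without control replicate 2 and 9 with the replicate block. Over bodies it was 4 without KO replicate 1.

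Among 20 other receptor chains the directions were mixed. Upstream, 7 of 19 tested were higher and 2 lower, with a median log2 fold of 0.06. Over bodies, 6 were higher and 4 lower of 20, with a median of -0.20, and the 4 lower calls were lost under library totals, pooled totals and olfactory receptor scaling, with the replicate block, and without KO replicate 1 or either control library. Downstream, 4 of 19 were higher and 0 lower. Of all genes, 24% were higher and 14.3% lower upstream, 23.1% and 15.2% over bodies, and 10.8% and 2.3% downstream. Set beside these shares, the counts are not read as a result about these chains. Genes that share the downstream windows of these chains were not looked up, so a neighbour's signal cannot be told apart there. The 7 higher calls upstream fell to 0 by edgeR without KO replicate 1 (7 chains had an unadjusted p under 0.05), control replicate 1 or control replicate 2, and to 1 with the replicate block. The 6 higher calls over bodies fell to 2 without KO replicate 1 or control replicate 1, and the 4 downstream to 1 without control replicate 1. Ifngr1 and Ifnar2 led the higher genes upstream. Over bodies, Csf2ra and Tnfrsf1a, a receptor for tumour necrosis factor with a log2 fold of 2.14 ± 0.35 (0.99 without KO replicate 1, still called), led the higher genes by p. Pdgfra, a kinase receptor of stromal cells, had a log2 fold of -0.99 ± 0.30. Downstream, Epor, the erythropoietin receptor, had 89.2 and 45.1 CPM in KO libraries and 9.94 and 12.5 CPM in control libraries, with a log2 fold of 2.55 ± 0.43 (2.00 without KO replicate 1). Epor passed the filter on low counts there through the KO libraries. Il11ra1, the IL-11 binding chain, had a downstream log2 fold of 2.05 ± 0.47, a call lost without control replicate 1 (1.55).

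Of the ligand genes, 1 of 15 was higher and 1 lower upstream, 3 of 12 were higher and 2 lower over bodies, and 1 of 14 was higher and 1 lower downstream. Of all genes, 38.2%, 38.3% and 13.1% were called in these classes. Without KO replicate 1, the ligand calls by edgeR were 0 upstream (2 with an unadjusted p under 0.05), 1 higher and 1 lower over bodies, and 1 lower downstream. Osm, which encodes the gp130 ligand oncostatin M, had a body level of 74.2 and 19.8 CPM in KO libraries and 6.41 and 4.25 CPM in control libraries, with a log2 fold of 3.13 ± 0.41 that passed under every alternative. Flt3l, the FLT3 ligand gene, had 9.60 and 5.51 CPM in KO libraries and 2.56 and 1.88 CPM in control libraries over its body (1.75 ± 0.54). Kitl, which encodes stem cell factor and is made mainly by niche cells, had 32.9 and 69.1 CPM in KO libraries and 169 and 109 CPM in control libraries over its body (-1.44 ± 0.31). Il34, a ligand of CSF1R, was lower over its body (-1.05 ± 0.29), and Angpt2, a ligand of TEK, was lower upstream (-1.45 ± 0.55). Csf3, the ligand of CSF3R, was higher downstream (2.28 ± 0.53), in a window whose neighbouring genes were not looked up. With 6.88 and 10.9 CPM in control libraries, it passed the filter on low counts there through the KO libraries. The Kitl call was lost with olfactory receptor scaling (-0.82) and without control replicate 1 (-1.11). Without KO replicate 1 the Flt3l value was 1.34, that of Il34 was -0.74, that of Angpt2 was -1.19 and that of Csf3 was 1.45, none of them called. Olfactory receptor scaling also ended the body call of Il34 (-0.41) and the upstream call of Angpt2 (-0.53), which was lost with pooled totals too (-0.89).

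Markers of other bone marrow cells moved in both directions beside these results. Their summed upstream level was 1023 and 932 CPM in KO libraries and 1281 and 1079.7 CPM in control libraries. Over bodies the sums were 495 and 518 CPM in KO libraries and 710 and 615 CPM in control libraries. Downstream the direction was the opposite, at 1244 and 952 CPM in KO libraries and 890 and 834 CPM in control libraries. Of all genes, 24% were called higher and 14.3% lower upstream, 23.1% and 15.2% over bodies, and 10.8% and 2.3% downstream. Beside these shares, the counts of markers called below, those of LSK cell markers included, are not read as a result about the markers. Upstream, 1 of 20 was higher, the granulocyte gene Elane with a log2 fold of 2.01 ± 0.53, and 1 was lower, the stromal gene Dcn with -2.04 ± 0.49. Over bodies, 2 of 18 were higher, Klf1 and Elane, and 4 were lower, the stromal genes Lepr (-0.97 ± 0.29) and Dcn (-0.96), the T cell gene Cd8a (-1.18) and Cdh5. Cd8a and Dcn are named here after their values were seen. Klf1, at 0.986 and 0.988 CPM in control libraries, passed the filter on low counts through the KO libraries. The Elane body call rested on KO replicate 1, with 10.7 and 1.79 CPM in KO libraries and 2.76 and 1.88 CPM in control libraries. Without KO replicate 1, 0 body markers were called by edgeR in either direction, with 3 at an unadjusted p under 0.05 (Elane -0.34, Klf1 1.29, Lepr -0.71, Cdh5 -0.62), and the 4 lower calls also fell to 0 with library totals, olfactory receptor scaling, the replicate block or either control library left out, and to 1 with pooled totals. Genes that share the downstream windows of markers were not looked up, so a neighbour's signal cannot be told apart there. Over bodies, neither the T cell gene Cd3g (0.17) nor the B cell gene Cd79a (0.67) was called. Downstream, Cd3g (3.58 ± 0.55) and Cd79a (2.47 ± 0.53) were higher of 18 tested. Both were called without KO replicate 1 (2.50 and 1.63), and both calls were lost without control replicate 1 (3.45 and 2.64). Ms4a1 and Hba-a1 had 0 counts over the body in all 4 libraries, as did Socs3, which had counts upstream and downstream, so such a 0 is no measure of a cell type. Without KO replicate 1 the upstream Elane value was 0.79 and was not called, and Dcn was at -1.78, also not called. The part of such cells in the receptor results was not tested. Of 11 LSK cell markers, 1 was higher upstream, Gata2 with 1.50 ± 0.55. Over bodies, 3 were higher, among them Gata2 (1.42 ± 0.41) and Spi1 (1.27 ± 0.33), and 1 was lower, the stem cell marker Slamf1 (-0.73 ± 0.30). Without KO replicate 1 none of these LSK marker calls held, with upstream Gata2 at 1.35, body Gata2 at 1.05, Spi1 at 0.69 and Slamf1 at -0.42. Downstream, 0 of 11 were called by edgeR, and 2 had an unadjusted p under 0.05.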

How the data were processed

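H3K14ac CUT&Tag of 2 KO and 2 control libraries was analysed from whole-number read counts per Entrez gene that the authors deposited, over upstream, body and downstream regions, per the file headers. The submitters' processing notes name featureCounts and mm10. The sources used here do not give the aligner, annotation release, duplicate handling or any spike-in. Gene length as deposited, in bp, gave CPM per kb. Values in the series tables and the library files were identical for 27179 genes, and 93.0% had a symbol in RefSeq (GRCm38.p6). Totals per library ranged from 677213 to 1260351 downstream, 869859 to 1164409 upstream and 4723549 to 12386891 over bodies.

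Each class was tested with edgeR 4.0.16 (quasi-likelihood F-test, filterByExpr with minimum count 10 and total 15, TMM, no covariate) in R 4.3.3, with Benjamini-Hochberg adjustment over all genes tested and a threshold of 0.05. The change upstream relative to the body was tested with limma 3.58.1 on log2 CPM (prior count 2). Scripts were tested on simulated data. Alternatives were library totals, pooled totals, DESeq2 1.42.0 size factors and Wald test, scaling on 1479 olfactory and vomeronasal receptor genes, all genes unfiltered, a minimum mean count of 50, leaving out each library, and a replicate block. A crossed block and a GC correction (loess, span 0.3) were added after seeing the data. Same-numbered libraries correlated at -0.28 upstream, -0.36 over bodies and -0.22 downstream in their deviations from the group means, so the numbers are not known to pair them.

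The 9 genes and the companion lists were chosen with earlier results of these data known. Companions named are up to 2 per list, class and direction with the smallest p. One companion gene that meets this rule is not reported here. Promoter windows are 250 bases before the RefSeq start, found for 7 of the 9 genes. Neighbouring genes were looked up for the 9 receptor genes only.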

Additional observations from a re-analysis of the deposited data

How the results depend on the processing

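Over the 36 log2 values of the receptor genes, 458 alternative values were computed: 384 kept their direction and side of the threshold, 33 no longer passed, 18 newly passed and 23 changed sign; no called value changed sign. Genes called numbered 8874 upstream, 8195 over bodies, 2833 downstream and 2605 for upstream against body. Leaving out a library gave 0 to 2303, 1430 to 11313, 695 to 4933 and 959 to 5295 in that order. A mean count of at least 50 gave 3357, 5426, 970 and 1230, with fewer genes tested. The replicate block gave 4364 upstream and 3679 over bodies, and lost the Tek body (-0.90) and Csf3r downstream (1.20) calls. The crossed block gave 5180 downstream, and olfactory and vomeronasal receptor scaling 4690 over bodies. Scaling also moved the split of calls: upstream it was 5562 higher and 3312 lower, against 7187 and 38 with that scaling, 7668 and 458 with pooled totals and 4369 and 3983 with library totals; over bodies 4935 and 3260, against 4504 and 186, 5666 and 1360, and 6377 and 990 in that order of scalings; downstream 2338 and 495, against 2090 and 60 with that scaling and 2115 and 943 with library totals. Changes of sign were these, where a range over the left-out libraries runs from lowest to highest. Kit over the body: 0.33 with library totals, 0.20 with pooled totals, 0.64 with receptor scaling, 0.11 with the mean of 50, and -0.040 to 0.076 with a library left out. Kit downstream: 0.15 with receptor scaling and 0.15 with the mean of 50. Csf1r upstream: 0.096 with pooled totals and 0.49 with receptor scaling. Il6st downstream: -0.13 with library totals, -0.12 with the GC correction, and -0.054 to 0.25 with a library left out. Csf3r relative to the body: 0.22 with raw count ratios, 0.039 with the mean of 50, and -0.42 to 0.29 with a library left out. With a library left out, Kit upstream ran from -0.054 to 0.78, Csf3r upstream from -0.24 to 1.12 and Il6st upstream from -0.29 to 0.89; relative to the body, Kit ran from -0.038 to 0.76, Csf2rb from -0.19 to 0.99 and Il6st from -0.80 to 0.20. The cause was not tested. Depth limits Il3ra most, with 5 to 12 control counts upstream and over the body.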

Other observations

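By the distance over 12 log2 CPM values (4 libraries in 3 region classes) among 17048 genes, the genes nearest to each receptor gene were Adgrl2 (0.89) and Adamts9 (1.00) for Tek, Prep (0.78) and Map3k9 (0.92) for Kit, and Ccdc12 (1.11) and Pfkp (1.38) for Flt3. For Csf1r they were Spocd1 (1.31) and Clic4 (1.37), for Csf3r Fcgr2b (1.31) and R74862 (1.42), and for Csf2rb H2-DMb2 (1.22) and Tmem176a (1.48). For Il6st they were Usp10 (0.84) and Ippk (1.16), for Il3ra Abhd11 (1.38) and H1f5 (1.41), and for Ifnar1 Phldb3 (0.83) and Ctcf (1.03). The measure uses level and change together, so a small distance says only that the 12 values were alike.

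At Kat7, gene body H3K14ac was 88.1 and 39.0 CPM in KO libraries and 30.7 and 30.04 CPM in control libraries, with a log2 fold of 1.06 ± 0.32 and an edgeR adjusted p of 0.00668. Eqtn, whose body meets the downstream window of Tek, was lower in its own upstream window in KO libraries, at 15.7 and 32.8 CPM, against 85.6 and 76.0 CPM in control libraries (log2 fold -1.73 ± 0.50, edgeR adjusted p = 0.0036). Mrps15 starts inside the downstream window of Csf3r, and its own downstream window held 188 and 56.7 CPM in KO libraries and 9.94 and 17.2 CPM in control libraries (log2 fold 3.14 ± 0.52). That window of Mrps15 passed the filter on low counts through the KO libraries.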
